A study of Mus musculus with 12 samples.

Results

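The muscle ankyrin repeat proteins *Ankrd1*, *Ankrd2* and *Ankrd23* and the small proline-rich protein gene *Sprr1a* were followed in whole mouse hearts after acute myocardial infarction (AMI). They are 4 of the 53801 genes in the deposited tables, found there by symbol. The set was chosen by the fold changes of *Ankrd2* and *Sprr1a* between day 1 and sham hearts, which were among the strongest increases, so day 1 values of the 4 genes are given as a description, without a test. The samples were 3 groups of C57BL/6N mouse hearts: sham-operated hearts, hearts 1 day after AMI and hearts 7 days after AMI. Each group held 4 hearts, with 1 library per heart. AMI was made by tying off the left anterior descending coronary artery under isoflurane anesthesia. The labels name day 0 beside days 1 and 7 and do not tie it to the sham hearts, whose day of collection the methods leave out. Infarct, border and remote muscle were not separated, and fewer cells of a type and less RNA per cell cannot be told apart in such libraries.

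The muscle ankyrin repeat proteins sit in the I-band of the sarcomere, where they bind the elastic protein titin, and they are also found in the nucleus. *Ankrd1* encodes the cardiac ankyrin repeat protein (CARP), a well-known marker of stretched and hypertrophic heart muscle. *Ankrd2* is best known from slow skeletal muscle, where stretch induces it, and *Ankrd23* encodes the diabetes-related ankyrin repeat protein (DARP). *Sprr1a* encodes a cornified envelope protein of stratified epithelia, which is also known in cardiomyocytes exposed to cytokines of the gp130 family and in regenerating neurons.

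The libraries held between 23204551 and 32166517 counts. Counts were scaled with edgeR's trimmed mean of M values (TMM), with factors between 0.781 and 0.917 for sham libraries, 1.01 and 1.06 for day 1 and 1.10 and 1.17 for day 7, and are given as CPM, the counts in a library scaled to a fixed total. Cardiomyocyte markers (11 genes, among them *Myh6*, *Tnnt2* and *Actc1*) summed to between 76800 and 93100 CPM in sham hearts, between 50100 and 62000 CPM on day 1 and between 44800 and 51600 CPM on day 7. Differences were fitted with edgeR's quasi-likelihood method over the 15306 genes that passed the filter on low counts, and a gene was called when its p, adjusted by Benjamini-Hochberg, was below 0.05 and its fold change (FC) was at least 2. Adjusted p-values below come from this test, and SE is the standard error of a log2 FC. All 4 genes passed the filter, *Ankrd2* only through the day 1 hearts and *Sprr1a* only through the AMI hearts.

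In the GRCm38 annotation, *Ankrd1* (ENSMUSG00000024803, chr19:36111961-36120099, minus strand) and *Ankrd2* (ENSMUSG00000025172, chr19:42036000-42045110, plus strand) are on one chromosome. *Ankrd23* (ENSMUSG00000067653, chr1:36530188-36536883) and *Sprr1a* (ENSMUSG00000050359, chr3:92483952-92485895) are on the minus strand. The predicted gene *Gm42417* lies on the same strand as *Ankrd23* and overlaps 78.2% of its exon bases. *Gm42417* was given between 0 and 24 counts per library, at most 0.116% of the *Ankrd23* count. How reads of both genes were assigned is not given in the sources used here, so the *Ankrd23* level carries that uncertainty. The exons of the other 3 genes overlap no other gene.

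The 250 bases before each RefSeq transcript start (GRCm38.p6) were searched for letters known from promoters of stretch and injury genes. They are shown because *Sprr1a* and *Ankrd2* went from almost no counts to many within a day while *Ankrd1* and *Ankrd23* were already high in sham hearts. Positions are counted from the transcript start, and capitals mark the match. The AP-1 letters TGANTCA, bound by Jun and Fos proteins, were searched on both strands. *Sprr1a* held them at positions -146 to -140 and -116 to -110, and TATAAA, searched on the gene's strand only, at -43 to -38. Of 32851 promoters, 6.75% held the AP-1 letters and 7.59% held TATAAA. The stretch before the first annotated exon base of *Sprr1a* (chr3:92485896-92486131, minus strand) is printed 5′ to 3′.
Sprr1a: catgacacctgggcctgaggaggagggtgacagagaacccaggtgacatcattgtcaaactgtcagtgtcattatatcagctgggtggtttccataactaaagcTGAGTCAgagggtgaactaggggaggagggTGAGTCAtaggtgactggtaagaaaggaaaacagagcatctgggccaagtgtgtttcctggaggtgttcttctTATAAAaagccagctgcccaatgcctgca

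The M-CAT letters GGAATG, bound by TEAD factors, were searched on both strands and stood in 12.6% of all promoters. *Ankrd1* held them at -210 to -205 and at -123 to -118, both inside the first exon of another *Ankrd1* transcript. *Ankrd23* held them on the opposite strand at -120 to -115, before 1 of its 2 RefSeq starts. There they overlap the STAT letters TTCNNNGAA, found in 7.02% of promoters, which run from -118 to -110. The M-CAT matches are shown in 30 bases each (chr19:36120037-36120066, chr19:36119950-36119979 and, for *Ankrd23*, chr1:36535842-36535871, all minus strand).
Ankrd1, distal: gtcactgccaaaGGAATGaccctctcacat
Ankrd1, proximal: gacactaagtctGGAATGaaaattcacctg
Ankrd23: cccagtgggccaCATTCCcagaacggtatt

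In *Ankrd2* none of the AP-1, M-CAT or STAT letters was found, nor the E-box CAGCTG (13.0% of promoters) or a CArG box (1.47% of promoters). TATAAA stood at -29 to -24 of *Ankrd2*, across the first annotated exon base, and is left out of the stretch printed here (chr19:42035777-42035999, plus strand). *Sprr1a* held the E-box letters at -173 to -168 and at -33 to -28, in lower case above. A match is a description of letters and not of a bound site, and a missing match says only that the letters are not in this window.
Ankrd2: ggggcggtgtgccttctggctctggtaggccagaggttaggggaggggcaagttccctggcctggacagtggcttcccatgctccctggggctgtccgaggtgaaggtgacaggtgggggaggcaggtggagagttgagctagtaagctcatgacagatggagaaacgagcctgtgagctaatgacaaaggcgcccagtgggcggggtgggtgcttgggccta

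*Sprr1a* went from at most 4 counts in a sham library to at least 715 on day 1 and at least 927 on day 7. The sham libraries held 4, 2, 0 and 0 counts in replicates 1 to 4, and a count of 0 allows up to 3 counts in a library, by counting error alone. The day 1 libraries held 1149, 1476, 1581 and 715 counts, and the day 7 libraries 1052, 1291, 927 and 1229 counts. Every AMI heart lay above every sham heart, as for 19.6% of all genes tested on day 1 and 28.3% on day 7, and the day 1 and day 7 hearts overlapped. The means were 0.0727 CPM ± 0.0986 (SD, n = 4) in sham hearts, 40.6 CPM ± 12.6 on day 1 and 39.6 CPM ± 7.98 on day 7. Pooled over hearts and scaled for library size, the ratio was 572 on day 1 (95% counting interval 263 to 1560) and 555 on day 7 (255 to 1510), resting on 6 sham counts in all. These intervals cover counting error only.

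On day 7 the fitted log2 FC of *Sprr1a* against sham hearts was 9.04 (SE 0.46), higher in 4 of 4 hearts. The near-absence of *Sprr1a* from the same sham libraries helped to choose the gene, so no p is given here either. Of all genes tested, 15.3% were called higher in the day 7 comparison, and *Sprr1a* had the 4th largest increase. On day 1 the fitted log2 FC was 9.07 (SE 0.459), the 2nd largest increase of 15306, where 7.79% of genes were called higher. Fitted FCs of genes this low in sham hearts depend on the prior count, and without sham replicate 1, which held 4 of the 6 counts, the day 1 and day 7 values were 10.18 and 10.14. Between day 7 and day 1 the log2 FC was -0.04 (SE 0.226), and its sign changed with the scaling.

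*Ankrd2* was high on day 1 and close to sham hearts on day 7. The sham libraries held 2, 2, 4 and 6 counts, the day 1 libraries 645, 778, 624 and 222 counts, and the day 7 libraries 19, 10, 16 and 4 counts. The day 1 hearts stood above all others, and 19.6% of all genes tested stood above sham hearts without overlap on day 1. The day 7 hearts overlapped the sham hearts through day 7 replicate 4. The means were 0.167 CPM ± 0.0935 (SD, n = 4) in sham hearts, 18.8 CPM ± 8.08 on day 1 and 0.425 CPM ± 0.215 on day 7. The pooled ratio of day 1 to sham was 113 (95% counting interval 67.2 to 207), and that of day 1 to day 7 was 43.6 (32.9 to 59.1).

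The fitted log2 FC of *Ankrd2* was 6.79 on day 1 (SE 0.518), the 11th largest increase of 15306 genes. From day 1 to day 7 it was -5.45 (SE 0.436), place 15303 of 15306 from the top, where 2.69% of all genes were called lower and 20.9% were lower without overlap of the 2 groups. On day 7 against sham hearts the log2 FC was 1.34 (SE 0.729). The same sham libraries helped to choose *Ankrd2*, and it passed the filter only through the day 1 hearts, so no p is given for this comparison. The pooled day 7 counts were 2.59 times those of sham hearts (95% counting interval 1.41 to 5.08), an interval that covers counting error only. Over the alternatives with 12 libraries the day 7 log2 FC ran from 0.54 with limma on log2(TPM + 1) to 1.73 on library sizes alone.

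**Figure D1:**
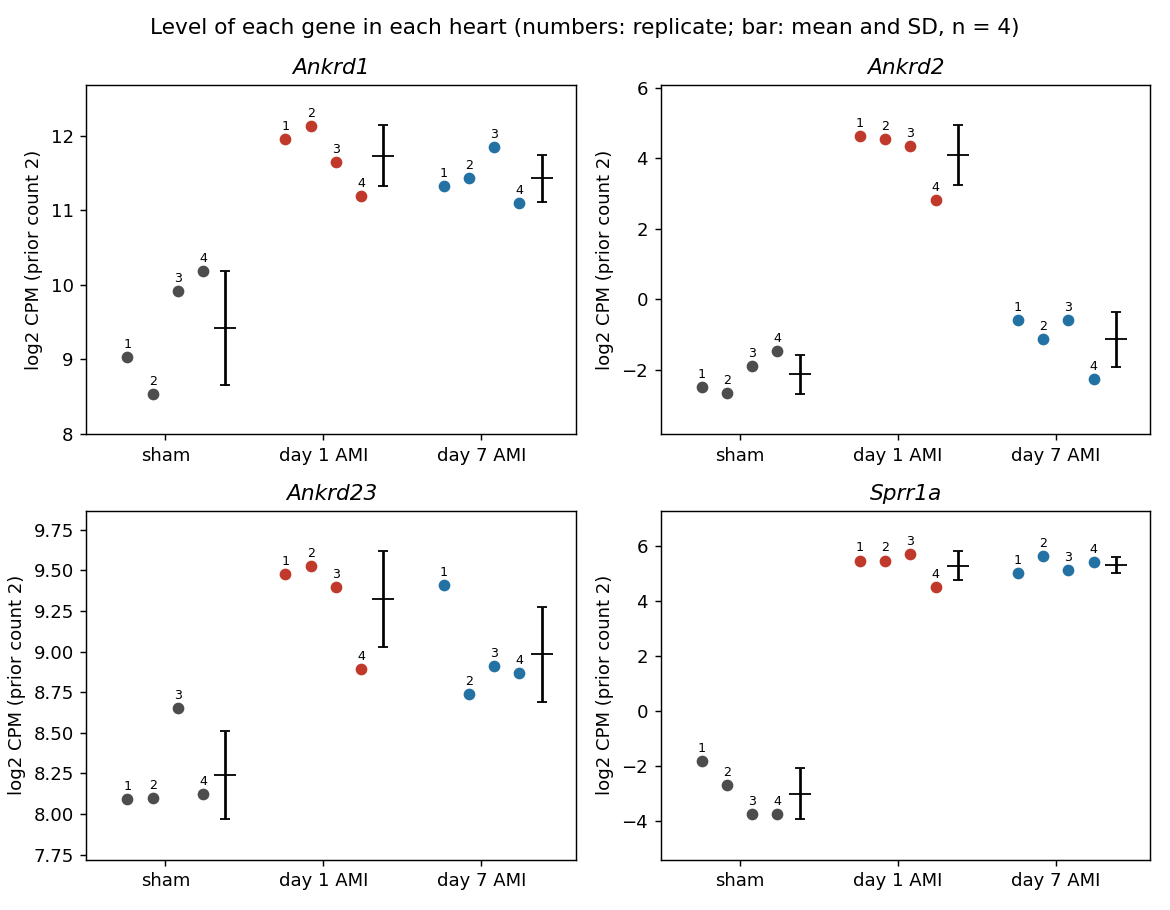
Level of each gene in each of the 12 hearts, as log2 CPM with a prior count of 2, by group (sham, and 1 and 7 days after AMI), with the replicate number above each point and the mean and SD beside each group (n = 4). The axes differ between panels. Ankrd2 is high on day 1 alone, and Sprr1a is high on both days.

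*Ankrd1* was the most abundant of the 4 genes in every heart. Its level was 522, 373, 972 and 1160 CPM in the sham hearts, 3960, 4480, 3210 and 2340 CPM on day 1, and 2570, 2760, 3700 and 2200 CPM on day 7. Every AMI heart lay above every sham heart, which held for 19.6% of all genes tested on day 1 and 28.3% on day 7. The day 1 and day 7 hearts overlapped. The means were 756 CPM ± 370 (SD, n = 4), 3500 CPM ± 932 and 2810 CPM ± 640. *Ankrd1* took 0.0647% ± 0.0319 (SD, n = 4) of all counts of a sham library and 0.361% ± 0.0956 on day 1.

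*Ankrd1* was called higher on day 7 than in sham hearts (log2 FC 1.89, SE 0.313, adjusted p = 0.000131), in 4 of 4 hearts, where 15.3% of all genes were called higher. The day 1 log2 FC was 2.21 (SE 0.317), place 295 of 15306, and the difference between day 7 and day 1 was -0.32 (SE 0.303), within about 1 standard error of 0. Relative to their mean, the sham hearts varied most, with a coefficient of variation of 48.9%, against 26.7% on day 1 and 22.8% on day 7. The highest sham heart, replicate 4, held 3.11 times the CPM of the lowest, replicate 2. *Ankrd2* gave the same order of sham hearts in CPM, but at 2 to 6 counts, with 2 counts in both replicates 1 and 2. So few counts cannot rank the hearts.

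*Ankrd23* stood at 272, 274, 402 and 277 CPM in the sham hearts, at 715, 739, 677 and 474 CPM on day 1, and at 681, 429, 482 and 469 CPM on day 7. Every AMI heart was above the highest sham heart, replicate 3, as for 19.6% of all genes tested on day 1 and 28.3% on day 7, and day 1 and day 7 overlapped. The means were 306 CPM ± 63.7 (SD, n = 4), 651 CPM ± 121 and 515 CPM ± 113. On day 7 the log2 FC against sham hearts was 0.75 (SE 0.176, adjusted p = 0.00212), which passed the adjusted p and not the 2-fold minimum. On library sizes alone, where the median of all genes lay 0.40 higher, it was 1.14 and was called. The day 1 log2 FC was 1.09 (SE 0.177), and that of day 7 against day 1 was -0.34 (SE 0.175).

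**Figure D2:**
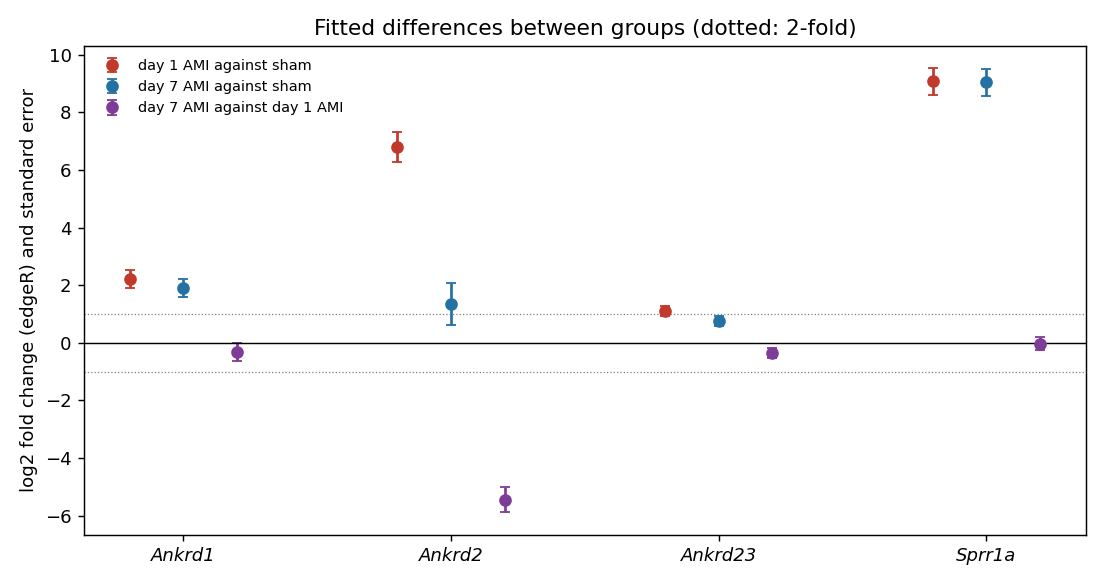
Fitted log2 fold changes of the 4 genes with their standard errors, for day 1 AMI against sham, day 7 AMI against sham and day 7 AMI against day 1 AMI, with dotted lines at 2-fold. Ankrd2 has the large fall from day 1 to day 7 (-5.45), while Ankrd1 (-0.32), Ankrd23 (-0.34) and Sprr1a (-0.04) lie close to 0.

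Levels of different genes are compared only in TPM, the relative abundance of transcripts in a library, which allows for length. *Ankrd1* stood at 546 TPM ± 267 (SD, n = 4) in sham hearts and at 3150 TPM ± 808 on day 1. The ratio of *Ankrd1* to *Ankrd23* in TPM had a median of 2.65 in sham hearts (1.65 to 5.29), 6.42 on day 1 (5.85 to 7.56) and 6.99 on day 7 (4.69 to 9.55). The day 1 hearts did not overlap the sham hearts in this ratio, and the day 7 hearts did. *Ankrd2* reached between 0.2 and 0.361 of the *Sprr1a* level on day 1 and between 0.00208 and 0.0116 of it on day 7. On day 1 the order was therefore *Ankrd1*, *Ankrd23*, *Sprr1a* and *Ankrd2* in each of the 4 hearts. Day 1 replicate 4 was the lowest day 1 heart for all 4 genes.

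Set against the cardiomyocyte markers of the same heart, the day 7 means of *Ankrd1*, *Ankrd23* and *Sprr1a* differed from their day 1 means by 0.01, -0.03 and 0.32 log2 units. The mean log2 CPM of the 11 markers was 12.38 ± 0.14 (SD, n = 4) in sham hearts, 11.87 ± 0.09 on day 1 and lower by a further 0.31 on day 7, and 6 of the 11 were called lower on day 7 than in sham hearts, where 5.88% of all genes were. On library sizes alone, and with limma on log2 TPM, 0 of the 11 were called lower, and the 6 stood between -0.98 and -0.65 on library sizes alone. Relative to that mean, *Ankrd1* stood 2.82 log2 units above sham hearts on day 1 and 2.83 on day 7. *Ankrd23* stood 1.6 above sham hearts on day 1 and 1.57 on day 7. *Sprr1a* stood 8.79 and 9.11 above sham hearts, and *Ankrd2* stood 6.73 above on day 1 and 1.81 on day 7. These differences carry no test.

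**Figure D3:**
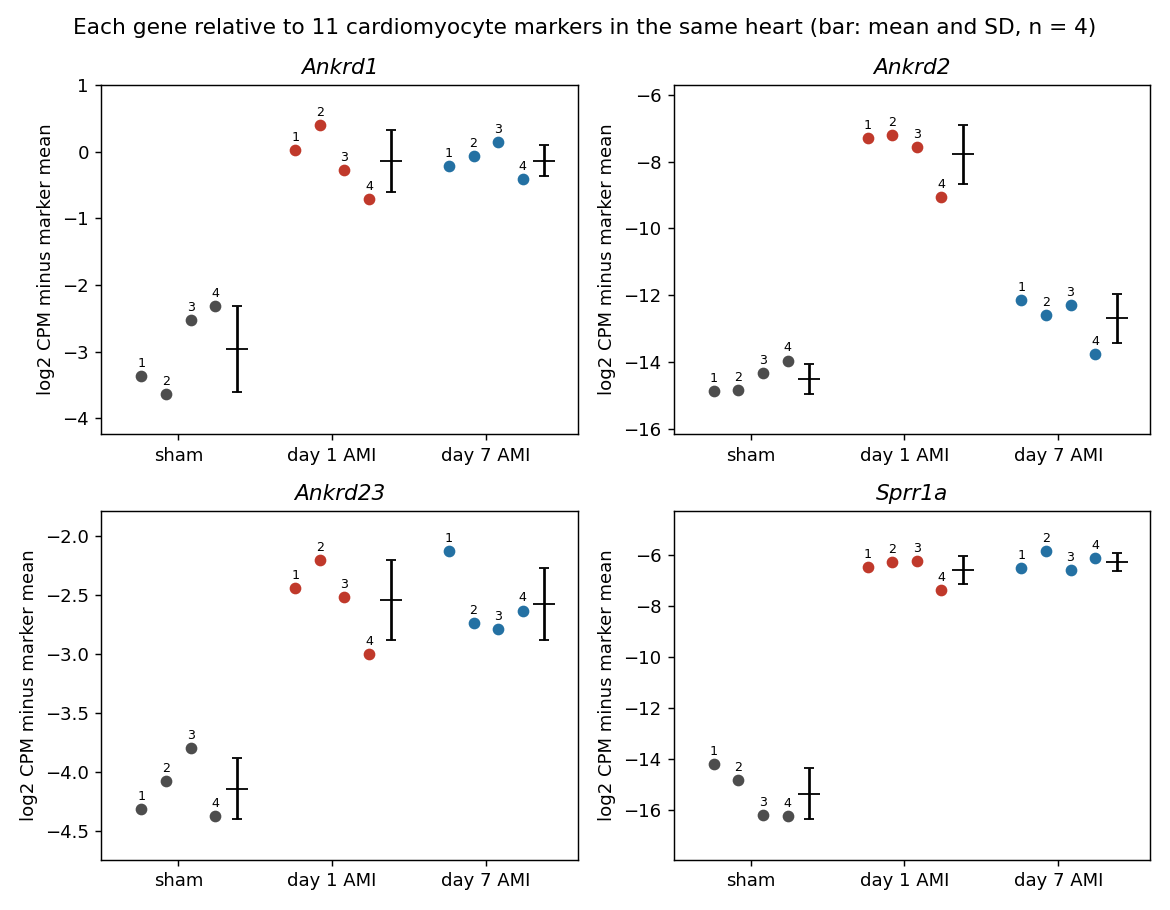
Log2 CPM of each gene minus the mean log2 CPM of 11 cardiomyocyte markers in the same heart, by group, with replicate numbers, mean and SD (n = 4). Ankrd1 lies between -3.633 and -2.312 in sham hearts and between -0.703 and 0.401 in day 1 hearts, with day 7 in the same range.

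The other cell types that express these genes were checked by their markers. Skeletal muscle markers (12 genes, among them *Myh4*, *Actn3* and *Pvalb*) summed to between 4.07 and 5.75 CPM in sham hearts and between 3.96 and 4.70 CPM on day 1. Of the 5 markers tested, the fast troponin gene *Tnnt3* was called higher on day 1 (log2 FC 1.78, adjusted p = 0.00316) and on day 7 (2.79, adjusted p = 2.83e-05), and the calcium pump gene *Atp2a1* was called lower on day 7 (-1.15, adjusted p = 0.0153), though at -0.74 without a call on library sizes alone. Of all genes, 7.79% were called higher on day 1, and 15.3% higher and 5.88% lower on day 7. On day 7 the summed skeletal muscle markers ran from 3.91 to 10.9 CPM, highest in replicate 2. These markers are mostly fast-fibre genes, with none particular to slow fibres, so their sums cannot speak to slow muscle. The part of skeletal muscle cells in the *Ankrd2* level was not tested. Keratinocyte markers (10 genes) summed to between 4.85 and 6.20 CPM in sham hearts, 8.23 and 12.8 CPM on day 1 and 4.69 and 9.09 CPM on day 7. *Krt5*, *Krt15* and *Krtdap* had no count in any library. Of the 4 markers tested, 2 were called higher on day 1, where 7.79% of all genes were. These were the basal keratin *Krt14* (log2 FC 2.57, adjusted p = 0.00913) and *Sfn* (1.78, adjusted p = 0.000547), a 14-3-3 protein. The part of keratinocytes in the *Sprr1a* level was not tested.

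Markers of infiltrating and stromal cells moved with the days as well, and their part in the levels of the 4 genes was not tested. Neutrophil markers (10 genes) summed to between 2.77 and 59.1 CPM in sham hearts, between 54.1 and 190 CPM on day 1 and between 11.4 and 42.2 CPM on day 7. Macrophage markers (10 genes) summed to 366 CPM ± 74.7 (SD, n = 4), 641 CPM ± 102 and 1050 CPM ± 209. Fibroblast markers (9 genes) summed to 1230 CPM ± 107, 2070 CPM ± 327 and 11800 CPM ± 3450. Endothelial markers (8 genes) summed to 1430 CPM ± 85.6, 1070 CPM ± 26.3 and 1670 CPM ± 70.6. Atrial markers (6 genes), which include *Nppa*, summed to between 209 and 971 CPM in sham hearts, 575 and 1330 CPM on day 1 and 1250 and 1900 CPM on day 7. Most of this sum was *Nppa* on days 1 and 7, with means of 220 CPM in sham hearts, 875 on day 1 and 1460 on day 7. The median log2 FC of the 6 genes against sham hearts was -0.04 on day 1 and -0.81 on day 7. *Nppa* was called higher on days 1 and 7 (log2 FC 1.99 and 2.73), as were 7.79% and 15.3% of all genes. *Bmp10* was called lower on both days (-3.49 and -5.28, adjusted p = 0.0298 and 0.00453), as were 2.98% and 5.88% of all genes. The *Bmp10* level ran from 0.097 to 66.3 CPM among sham hearts. *Kcnj3* was called lower on day 7 (-1.42, adjusted p = 1.74e-05). The summed atrial markers were highest in sham replicate 4 and day 7 replicate 3 and lowest in day 1 replicate 4 and day 7 replicate 4. *Ankrd1* was highest or lowest of its group in the same hearts. The lowest sham heart and the highest day 1 heart differed, being replicate 1 in both groups for the atrial sum and replicate 2 in both for *Ankrd1*.

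Of the 12 proteins that the muscle ankyrin repeat proteins bind or act with, 0 were called on day 1 by edgeR or DESeq2. With edgeR, 10.8% of all genes were called. With each tool, 7 of the 12 had an unadjusted p under 0.05. Their median log2 FC was -0.29 against -0.01 over all genes. On day 7, 2 of 12 were called lower than in sham hearts, *Tcap* (telethonin, log2 FC -1.55, adjusted p = 0.000634) and *Trim54* (a titin-associated ubiquitin ligase, -1.38, adjusted p = 9.54e-07), where 5.88% of all genes were. *Trp53*, a partner of *Ankrd2*, was called higher (1.08, adjusted p = 2.71e-06), where 15.3% of all genes were. On library sizes alone *Trim54* stood at -0.99 and was no longer called. Titin itself was at 6850 CPM ± 1120 (SD, n = 4) in sham hearts and 5110 CPM ± 400 on day 1, with a log2 FC of -0.42 (*Ttn*, adjusted p = 0.0184).

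The intermediate filament gene *Des* was at 2280 CPM in sham hearts, 3830 CPM on day 1 and 1860 CPM on day 7. It was called lower on day 7 than on day 1 (log2 FC -1.04, adjusted p = 1.7e-05), as was *Trim54* (-1.04, adjusted p = 2.37e-05). In this comparison 2.69% of all genes were called lower. Both genes lost the call on library sizes alone (-0.91 and -0.92). Myopalladin (*Mypn*), which binds CARP, had a log2 FC of 0.15 on day 1 (adjusted p = 0.224) and -0.81 on day 7 (adjusted p = 6.53e-06), under the 2-fold minimum. *Casq2*, the calcium-binding protein of the sarcoplasmic reticulum, had -0.26 and -0.20 against sham hearts. *Capn3*, a muscle protease, had -0.49 (adjusted p = 0.119) and -0.26 (adjusted p = 0.375).

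Genes known from hypertrophied or stretched heart muscle were called higher on day 1 in 7 of 12 cases, where 7.79% of all genes were, and lower in 0, with a median log2 FC of 1.66. *Nppb*, which encodes brain natriuretic peptide, was at 54.7 CPM ± 25.7 (SD, n = 4) in sham hearts, 569 ± 246 on day 1 and 239 ± 57 on day 7 (day 1 log2 FC 3.38, adjusted p = 4.14e-05). *Fhl1*, a titin-associated LIM protein, rose by 2.78 (adjusted p = 8e-06), and *Hspb1*, a small heat shock protein, by 2.16 (adjusted p = 8.16e-06). On day 7, 4 of 12 were called higher than in sham hearts, where 15.3% of all genes were, namely *Myh7* (fetal myosin heavy chain, 2.78, adjusted p = 1.72e-05), *Nppa* (2.73), *Nppb* (2.13) and *Acta1* (1.26). The atrial gene *Nppa* ranged from 55.6 to 555 CPM among sham hearts.

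From day 1 to day 7, 8 of these 12 genes were called lower, where 2.69% of all genes were, with a median log2 FC of -1.27. *Hspb1* fell by 2.41 and *Fhl1* fell by 2.16 (adjusted p = 8.25e-07 and 1.02e-05), and *Myh7* was called higher (1.31, adjusted p = 0.0069), as were 8.55% of all genes. Of *Ankrd1*, *Ankrd2*, *Ankrd23* and *Sprr1a*, the fitted difference between these days was past 2-fold for *Ankrd2* alone. On library sizes alone *Csrp3*, the muscle LIM protein, was at -0.99 and lost its call.

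YAP and TEAD are a coactivator and its DNA-binding partners in the Hippo pathway, and *Ankrd1* is among their best-known targets. Of 20 other targets tested, 6 were called higher and 1 lower on day 1, and 6 higher and 0 lower on day 7, where 7.79% and 15.3% of all genes were called higher. *Ccn2* (*Ctgf* in the files), a matricellular protein, rose by 2.59 on day 1 and by 2.66 on day 7 (adjusted p = 0.000406 and 0.000114). *Tgfb2* rose by 1.94 and by 1.56 (adjusted p = 5.32e-05 and 5.79e-05). *Myof* rose by 1.24 on day 1 and by 2.36 on day 7 (adjusted p = 7.75e-05 and 7.85e-08), and *Ccdc80*, a matrix protein, had 0.23 (adjusted p = 0.0972) and 1.51 (adjusted p = 1.04e-07). The 1 gene called lower on day 1, as were 2.98% of all genes, was *Gadd45a* (-1.06, adjusted p = 0.00454), which was at -0.79 on library sizes alone.

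Of 12 factors known to act on these promoters, 0 were called on day 1 by edgeR or DESeq2. With edgeR, 10.8% of all genes were called. With each tool, 4 of the 12 had an unadjusted p under 0.05. On day 7, 2 were called higher, where 15.3% of all genes were. These were *Tead2* (log2 FC 1.27, adjusted p = 1.8e-05) and *Mrtfa* (*Mkl1* in the files, 1.02, adjusted p = 1.89e-05). DESeq2 called 1 of the 12 on day 7, without *Mrtfa*. *Tead1*, at 224 CPM in sham hearts, had log2 FCs of 0.11 and -0.03 against sham hearts. *Yap1* had 0.14 and -0.09. *Wwtr1*, which encodes TAZ, had -0.14 and 0.44 (adjusted p = 0.202 and 0.000541), under the 2-fold minimum.

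The gp130 cytokines are known inducers of *Sprr1a* in cardiomyocytes. Of 15 ligands, receptors and signal genes, 7 were called higher on day 1 and 5 on day 7, where 7.79% and 15.3% of all genes were, and none was called lower than in sham hearts. The ligands *Il11* (log2 FC 6.01, adjusted p = 0.000189), *Il6* (4.13, adjusted p = 7.66e-05), *Osm* (3.19, adjusted p = 4.99e-05) and *Lif* (2.54, adjusted p = 0.00235) rose on day 1 from levels at or under 0.5 CPM. *Il6* was at 1.31 CPM ± 0.571 (SD, n = 4) on day 1 and 1.13 ± 0.203 on day 7, and *Il11* at 1.81 ± 1.3 and 0.333 ± 0.203. Cardiotrophin-1 (*Ctf1*) had -0.40 on day 1 (adjusted p = 0.069) and -0.86 on day 7 (adjusted p = 0.000538). The oncostatin M receptor *Osmr* rose by 1.12 on day 1 (adjusted p = 0.00124) and had 0.69 on day 7 (adjusted p = 0.0143). *Socs3*, the feedback inhibitor of the pathway, rose by 1.87 on day 1 (adjusted p = 0.00547) and had 0.28 on day 7 (adjusted p = 0.618). From day 1 to day 7, 4 of the 15 were called lower, where 2.69% of all genes were, namely *Il11* (-2.39), *Socs3* (-1.58), *Clcf1* (-1.38) and *Osm* (-1.15).

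**Figure D4:**
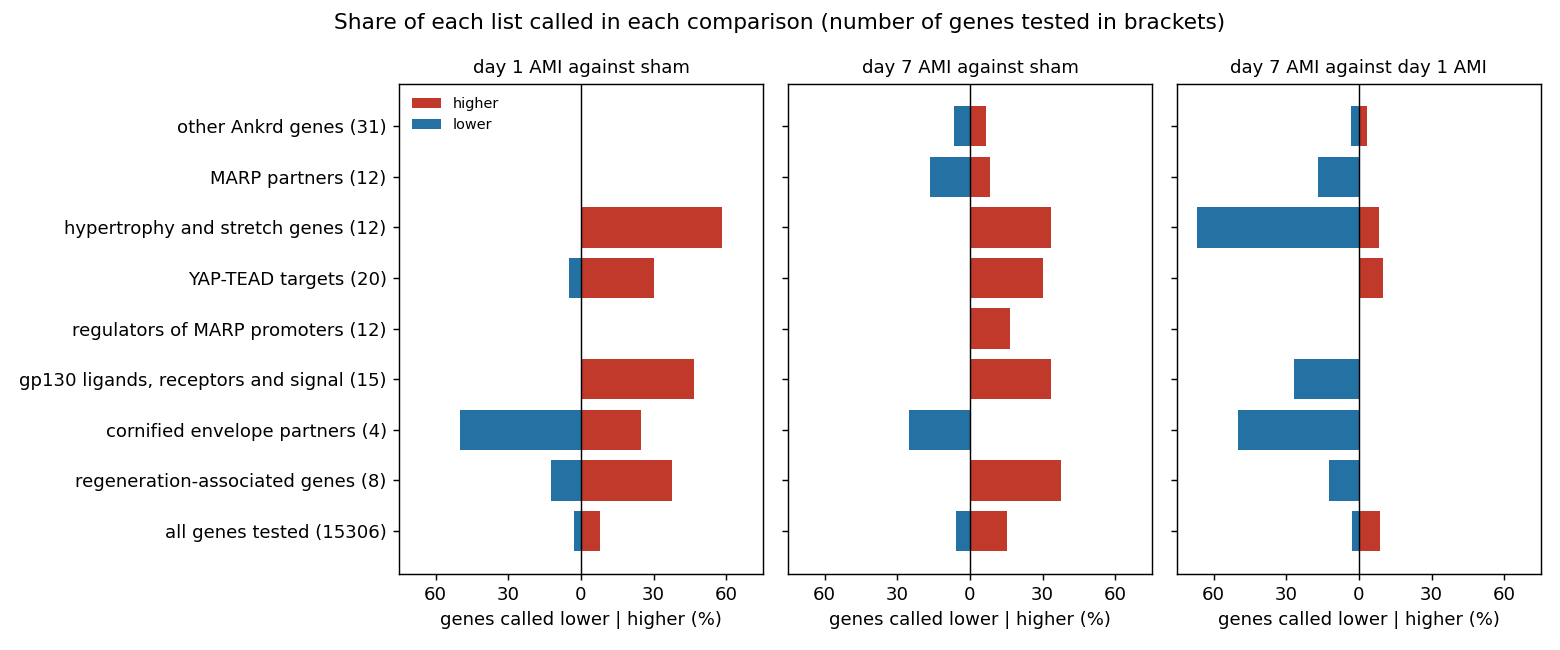
Share of the tested genes of each list called higher (right) or lower (left) in each comparison, in percent, with the number of genes tested in brackets and all genes tested in the lowest bar. Hypertrophy and stretch genes are at 58.3% higher on day 1 and 66.7% lower from day 1 to day 7, where all genes are at 7.79% and 2.69%.

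Other SPRR genes had few counts. Of the 15 other family members in the tables, none passed the filter, 12 had at most 3 counts in every library, and 8, including the paralogue *Sprr1b*, had no count. *Sprr2g* had 0 counts in the sham libraries together, 54 on day 1 and 6 on day 7, and *Sprr2a3* had 2, 11 and 68. How reads shared among the related *Sprr2* genes were assigned is not given in the sources used here, so their counts are uncertain. *Sprr1a* had 4921 counts on day 1 and 4499 on day 7 over the same libraries.

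Of the proteins joined to *Sprr1a* in the cornified envelope, 4 of 9 were tested. On day 1, 1 was called higher and 2 lower, where 7.79% and 2.98% of all genes were. On day 7, 1 was called lower than in sham hearts, where 5.88% of all genes were. *Tgm1*, the transglutaminase that cross-links them, was at 0.339 CPM ± 0.134 (SD, n = 4) in sham hearts and 1.38 ± 0.536 on day 1 (log2 FC 2.00, adjusted p = 0.000822). *Ppl*, which encodes periplakin, fell by 1.01 on day 1 and by 2.16 on day 7 (adjusted p = 0.000462 and 3.67e-07), and *Tchh* fell by 1.38 on day 1 (adjusted p = 0.0241). On library sizes alone *Ppl* stood at -0.74 on day 1, without a call. *Flg* and *Rptn* had no count in any library.

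Genes known from regenerating neurons form a list to which *Sprr1a* belongs. Of 8 others tested, 3 were called higher on day 1 and 3 on day 7, where 7.79% and 15.3% of all genes were. *Gadd45a* was the 1 called lower on day 1, where 2.98% of all genes were. The higher genes were *Atf3*, a stress-induced transcription factor (log2 FC 2.97 and 1.71, adjusted p = 6.17e-05 and 0.00111), *Basp1* (2.49 and 2.64, adjusted p = 6.98e-05 and 7.8e-06) and *Gap43* (2.31 and 3.10, adjusted p = 0.00187 and 4.97e-05). *Jun*, a subunit of AP-1, had 0.28 (adjusted p = 0.21) and 0.34 (adjusted p = 0.113).

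Of 31 other *Ankrd* genes tested, 0 were called on day 1 by edgeR, where 10.8% of all genes were, and their log2 FCs ran from -0.91 (*Ankrd35*) to 0.80 (*Ankrd42*). DESeq2 also called 0, and 15 of the 31 had an unadjusted p under 0.05 with either tool. On day 7, 2 were called higher than in sham hearts, where 15.3% of all genes were, *Ankrd13d* at 1.44 (adjusted p = 0.00151) and *Ankrd42* at 1.03 (adjusted p = 0.0334). The 2 called lower were *Ankrd63* at -2.24 (adjusted p = 0.000165) and *Ankrd9* at -1.11 (adjusted p = 1.06e-05), where 5.88% of all genes were. DESeq2 called 3 of these 4, without *Ankrd42*. *Ankrd63* was at 6.26 CPM ± 3.13 (SD, n = 4) in sham hearts and 1.33 ± 0.34 on day 7.

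The genes whose pattern was most like each of the 4 were found by the root mean square difference of log2 CPM, centred on each gene's mean, over the 12 libraries and 13433 genes. The 12 libraries are the same for all genes, and low counts add to the differences. Nearest to *Ankrd1* were *Fjx1* (0.417), *Psat1* (0.419) and *F2rl1* (0.46), and nearest to *Ankrd23* were *St6galnac4* (0.152), *Qsox1* (0.157) and *Fhl3* (0.157). Nearest to *Ankrd2* were the chemokine gene *Cxcl3* (0.994), the decoy receptor gene *Il1r2* (1.33) and the chemokine gene *Cxcl5* (1.35). The genes nearest to *Sprr1a* included *Spp1*, which encodes osteopontin (0.899), and *Tnc*, which encodes tenascin C (1.20).

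*Cxcl3* was at 0.0261 CPM ± 0.0522 (SD, n = 4) in sham hearts, 4.45 ± 3.82 on day 1 and 0.0259 ± 0.0175 on day 7. *Spp1* was at 0.456 CPM ± 0.28, 116 ± 33.2 and 80.4 ± 59.2, and varied more among day 7 hearts than *Sprr1a* did. The 4 genes were not among one another's nearest genes. Seen from *Ankrd1*, *Ankrd23* was at place 273 (0.72), and *Ankrd2* and *Sprr1a* were at places 13389 and 13426. The place depends on the gene it is counted from: *Ankrd1* was at place 128 from *Ankrd2*, 285 from *Sprr1a* and 9639 from *Ankrd23*.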

How the data were processed

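Whole hearts of 12 mice were grouped by their labels, 4 per group, with 1 library per heart. Replicates are separate hearts. Per the methods and the submitters' processing notes, paired-end reads of 150 bp were trimmed by the authors (Cutadapt) and aligned with STAR 2.4.0j to GRCm38 (mm10). The authors deposited raw counts per gene, whole numbers without normalization, and TPM from RSEM, rounded to 2 decimals. The counting tool and strand are not given in the sources used here.

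Counts were analysed with edgeR 4.0.16 in R 4.3.3 (TMM, filterByExpr by group, quasi-likelihood F test on one fit of 3 groups, Benjamini-Hochberg over 15306 genes). Log2 CPM used a prior count of 2. SEs are those implied by the F statistic. The alternatives were DESeq2 1.42.0, limma 3.58.1 on log2 TPM (pseudocount 1 or 0.1) with a minimum of 1 TPM in 4 libraries, RLE size factors, no filter, only the groups compared, a replicate block, and each heart left out. A fit on library sizes alone was chosen after the data were seen. Code was tested on simulated data.

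The members, the gene lists and the promoter motifs were chosen with earlier results of these data known. Named genes are the members, for each list and comparison the 2 called genes with the largest change and at least 1 CPM, known partners and inducers, and the 3 genes most like each member. One gene that this rule names is not reported here. *Acta1*, *Ankrd9*, *Ankrd42*, *Clcf1*, *Csrp3*, *Gadd45a*, *Gap43*, *Kcnj3*, *Krt14*, *Tchh*, *Trp53* and the *Sprr2* genes were named after their values were seen. Depth ran from 23204551 to 32166517 counts, and for genes with few counts, such as *Ankrd2* in sham hearts, counting error is not negligible. Within a group, any pair of libraries had a chi-square of at least 8.84 per degree of freedom, so none repeated another.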

Additional observations from a re-analysis of the deposited data

Results flagged for a closer look

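Among the 4 genes in the 3 groups, 1 of the 12 sets of 4 hearts held a heart set apart from the rest: *Ankrd23* in sham replicate 3 stood at 402 CPM, while the other sham hearts stood between 272 and 277 CPM. Chance sets apart about 1 in 20 such sets. Without this heart the log2 FC of *Ankrd23* was 1.25 on day 1 and 0.90 on day 7.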

How the results depend on the processing

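On day 7 against sham hearts, the call of *Ankrd1* and the direction of *Sprr1a* were kept in all 9 alternatives with 12 libraries. They were also kept in all 12 with a heart left out. No call reversed. Between day 7 and day 1 the log2 FC of *Sprr1a* changed sign, running from -0.06 to 0.23 over the alternatives with 12 libraries. *Ankrd2* on day 7, for which no p is given, stood at a log2 FC of 1.73 on library sizes alone and 1.43 with limma on log2(TPM + 0.1). Its value could not be given with only the 2 groups compared, where it did not pass the filter. *Ankrd23* on day 7 passed the 2-fold minimum on library sizes alone (1.14), with limma on log2(TPM + 1) with and without the filter (1.27 in both) and on log2(TPM + 0.1) (1.28). Library sizes alone moved the median log2 FC of all genes by 0.27, 0.40 and 0.13 on day 1, on day 7 and between days, and limma on log2(TPM + 1) moved it by 0.28, 0.44 and 0.17. With limma on log2(TPM + 1), with and without the filter, *Ankrd2* stood at 4.56 on day 1 and -4.02 between days, *Sprr1a* at 6.45 and *Ankrd23* at 1.40 on day 1, and *Ankrd23* stood at 1.41 on log2(TPM + 0.1). The pseudocount lowers the FC of low genes.

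With a heart left out, the log2 FC on day 7 ran from 1.66 to 2.17 for *Ankrd1*, 1.09 to 1.73 for *Ankrd2*, 0.59 to 0.90 for *Ankrd23* and 8.65 to 10.14 for *Sprr1a*. On day 1 it ran from 1.98 to 2.49, 6.54 to 7.18, 1.02 to 1.25 and 8.69 to 10.18.

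Genes called lower numbered 456 on day 1, 900 on day 7 and 411 between days. On library sizes alone there were 217 and 318 on days 1 and 7, with limma on log2(TPM + 1) 64, 113 and 133, on log2(TPM + 0.1) 122, 178 and 176, and without the TPM filter 63, 112 and 124. Genes called higher on day 7 numbered 2346, 3633 on library sizes alone and 3561 on log2(TPM + 0.1). The share of higher calls on day 7 was 72.3%, against 92.0% on library sizes alone. Of 1407 list counts under the alternatives, 274 moved by over 1.5 times, and of 4116 values of other named genes 148 lost and 77 gained the call. The cause was not tested.

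Replicate numbers did not pair the hearts: of 12 same-number pairs, 4 correlated above 0.1 (range -0.244 to 0.229), and 2 of 12 libraries correlated best with their own number. With the replicate block the log2 FCs on day 7 were 1.91, 1.29, 0.75 and 9.07 for *Ankrd1*, *Ankrd2*, *Ankrd23* and *Sprr1a*, and the genes called numbered 1180 higher and 441 lower on day 1 and 2341 higher and 899 lower on day 7.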
